A study of Oryctolagus cuniculus with 4 samples.

Results

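TCF21 EDIL3 fibroblasts are stromal cells of the rabbit bladder mucosa that were sorted from the other fibroblasts by 4 genes. Cells with at least 500 UMIs (unique molecular identifiers, each counting 1 captured RNA molecule), at least 200 detected genes and at most 15% of UMIs in 13 mitochondrial genes were kept. Of these, cells with at least 0.5% of UMIs in the proteoglycan genes DCN and LUM and no UMI of the leukocyte gene PTPRC or the endothelial gene PECAM1 were taken as gated fibroblasts. The detected genes of 4 groups were then counted in each cell, namely SFRP2, PCOLCE2, MFAP5 and EFEMP1, then WIF1, HHIP, PTPRQ and ADAM23, then TCF21, EDIL3, BCHE and FAM162B, and then APOD, CP, HSD11B1 and CPB1. A cell was a TCF21 EDIL3 fibroblast, called a member here, if it held at least 2 genes of the TCF21 group and more of that group than of any other. There were 2064 members among 7580 gated fibroblasts and 21945 kept cells. The same rule with the groups exchanged gave 3590 SFRP2, 140 WIF1 and 183 APOD fibroblasts, and 1603 gated fibroblasts belonged to no kind.

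TCF21 is a transcription factor of mesenchymal cells that acts in the embryonic development of stroma around epithelia and marks resident fibroblasts of several organs. EDIL3 is a secreted protein that binds integrins at the cell surface, and BCHE is butyrylcholinesterase, an enzyme that splits choline esters. FAM162B has no role that is stated here. Fibroblasts beneath the bladder epithelium lay down the connective tissue of the mucosa, release growth factors that reach the urothelium, and lie among nerve endings and smooth muscle.

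The samples came from the bladder mucosa of 2 rabbits on day 10 after a focal resection of the mucosa (Injury_1 and Injury_2) and of 2 rabbits under homeostasis (Normal_1 and Normal_2), with 1 library each. The labels call the tissue urothelium, state no treatment of the normal animals and no age, and the study's methods name adult New Zealand rabbits. Each sample was a piece of 2.0 by 2.0 cm that had been digested with collagenase, so the cells are those that the digestion released. At day 10 the wound had just been covered by new epithelium, according to the labels.

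The libraries held 28745017 to 47881609 UMIs in 5823 to 6884 barcodes, with Normal_1 the lowest on both counts. The number of cell barcodes that a pair of libraries had in common was 8 to 13. The injured samples gave 310 and 598 members (Injury_1 and Injury_2) and the normal samples 304 and 852 (Normal_1 and Normal_2). Their summed counts, which were the units of all comparisons, held 2409690, 5019268, 1510489 and 5900221 UMIs in the same order. Normal_1 thus rested on the fewest cells and molecules, and a low gene was least well measured there. Levels below are CPM, the UMIs of a gene in such a sum after scaling all sums to the same total, and all sets of 4 values are in the order Injury_1, Injury_2, Normal_1, Normal_2.

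The 4 genes of the TCF21 group chose the members, so their levels are a description without a test. TCF21 had 974, 1090.4, 364 and 1168 CPM in the members. It was also abundant in the other kinds, at 265 to 635 CPM in SFRP2, 609.6 to 1160 CPM in WIF1 and 432 to 1081 CPM in APOD fibroblasts, so TCF21 on its own did not set the members apart from any of them. EDIL3 had 267, 255, 103 and 187 CPM in the members and 11.3, 6.59, 6.65 and 5.42 CPM in SFRP2 fibroblasts. WIF1 fibroblasts held EDIL3 at 176 to 289 CPM, a range that overlaps that of the members.

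BCHE had 102, 119.5, 243 and 225 CPM in the members, 29.5, 19.4, 102 and 93.6 CPM in SFRP2 fibroblasts and 8.21 to 25.7 CPM in WIF1 fibroblasts. Both normal samples lay above both injured ones in the members and in SFRP2 fibroblasts. FAM162B had 261, 416, 788 and 850.3 CPM in the members, 9.33, 11.8, 114 and 90.7 CPM in SFRP2 and 754 to 1801 CPM in WIF1 fibroblasts. The members were therefore set apart by the combination of the genes, with EDIL3 and FAM162B separating them from the SFRP2 kind and BCHE from the WIF1 kind. WIF1 fibroblasts of Normal_1 (1 cell) and APOD fibroblasts of Injury_2 (19 cells) are left out of these ranges and of every fit.

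**Figure D1:**
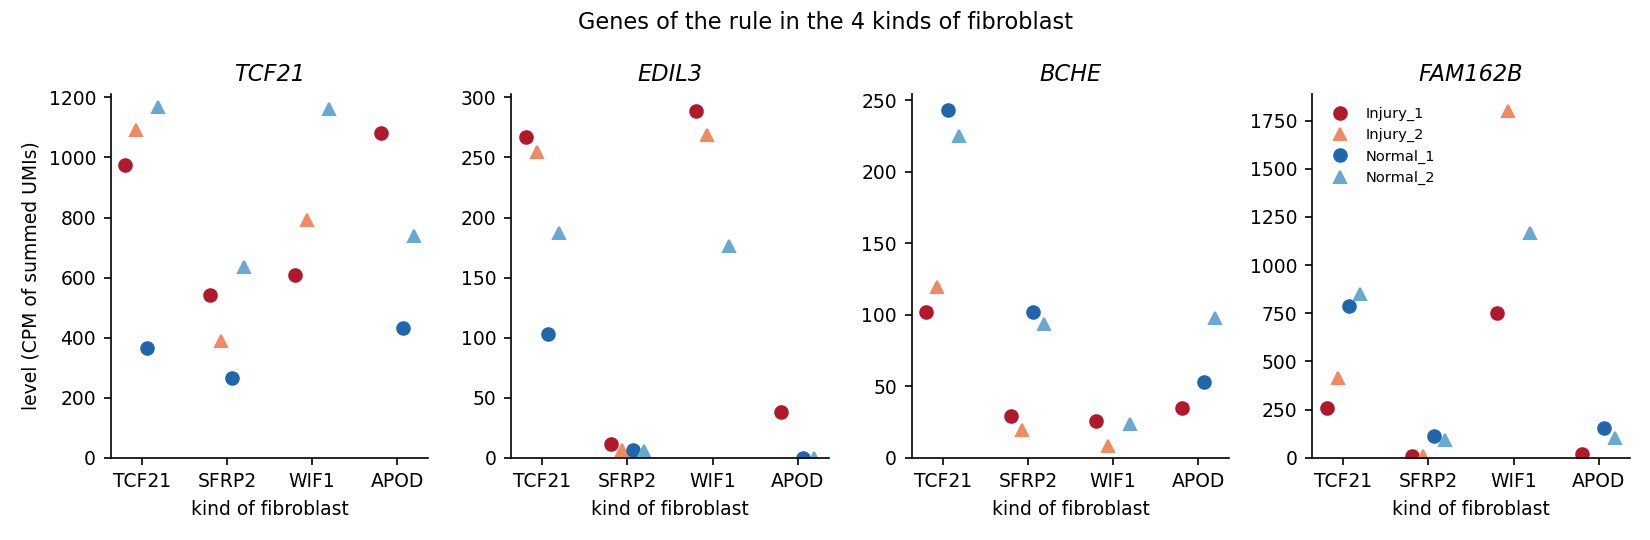
Level of the 4 genes of the TCF21 group (CPM of summed UMIs, linear axes from 0) in each kind of fibroblast, with 1 point per sample. TCF21 is present in all 4 kinds, EDIL3 is shared with the WIF1 kind, and the SFRP2 kind lies low for EDIL3 and FAM162B.

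Most members held several of the 4 genes, since 353 had 2 of them, 1061 had 3 and 650 had all 4. A UMI of TCF21 was found in 96.4% of the members, of FAM162B in 84.7%, of EDIL3 in 66.8% and of BCHE in 66.5%. Normal_1 differed in makeup, with TCF21 in 82.6% and EDIL3 in 33.2% of its members, against at least 98.1% and 66.4% in each of the other samples. FAM162B was found in 69.0% and 70.7% of the members of the injured samples and in 96.7% and 96.0% of those of the normal samples.

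The boundary of the members was not sharp. A gene of the APOD group was found in 93.1% of the members, one of the SFRP2 group in 65.9% and one of the WIF1 group in 47.5%, and 18 of the 2064 members held no gene of the other groups. Just inside the rule were 343 members with 2 genes of their own group and 1 of the next group, at a median of 5693 UMIs. Just outside were 22 cells with 1 TCF21 group gene and none of the other groups, at a median of 5538 UMIs, and 1155 cells with at least 2 such genes that were tied with another group, at a median of 6874 UMIs. At the DCN and LUM limit, 34 members had 0.5 to 0.6% of UMIs in these genes, and 35 cells with 0.4 to 0.5% met the rest of the rule.

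The label was checked against cell type markers. Of 7 fibroblast markers, which include DCN and LUM of the gate, 6 carried a symbol in the files and together held 79096, 92096, 58161 and 83394 CPM in the members, with none at 0. Markers of other cell types were low. The 7 endothelial markers summed to 9.56 to 33.4 CPM with PECAM1 at 0 by the rule, the 8 urothelial markers to 54.8 to 122 CPM, the 7 measured immune markers to 8.37 to 16.6 CPM with PTPRC at 0 by the rule, and the 4 measured pericyte markers to 12.7 to 21.8 CPM. Of the other lists, the 3 mast cell markers summed to at most 7.05 CPM with CPA3 at 0, the 3 measured mesothelial markers to at most 2.49 CPM with WT1 and LRRN4 at 0, and the 1 measured red blood cell marker to at most 0.662 CPM.

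Smooth muscle genes stood out against these lists and against SFRP2 fibroblasts, but not against WIF1 fibroblasts (below). The 5 measured smooth muscle markers, MYH11, ACTG2, DES, ACTA2 and Tpm2, which encode contractile proteins, summed to 2553, 2684, 440.3 and 2384 CPM in the members, against 412, 524, 260 and 428 CPM in SFRP2 fibroblasts. Normal_1 was far below the other 3 samples. Members with under 2% of UMIs in DCN and LUM (38, 92, 49 and 232 cells) held 8645, 7963, 715 and 5467 CPM of these markers, and those with 2% or more held 1765, 1807, 385 and 1162 CPM. Smooth muscle-like cells, defined by at least 3 of these markers, held 12551, 13640, 7705 and 7314 CPM. Of the members themselves, 35.8%, 31.9%, 8.88% and 50.1% held at least 3 of these markers, as did 31.3%, 26.5%, 7.06% and 37.4% of the members with 2% or more of UMIs in DCN and LUM. Results on the members are therefore also given, where they differ, for members with at least 2% of UMIs in DCN and LUM, an alternative that was chosen after the data had been seen.

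The members' share of the gated fibroblasts was lower in both injured samples. It was 15.4% in Injury_1 (95% Wilson interval 13.9 to 17.1%), 25.2% in Injury_2 (23.5 to 27.0%), 32.2% in Normal_1 (29.3 to 35.3%) and 37.9% in Normal_2 (35.9 to 39.9%). The injured samples averaged 20.3 ± 6.90% (SD, n = 2) and the normal samples 35.0 ± 4.02% (SD, n = 2), and the ranges did not overlap. The two-sided exact permutation test gave p = 0.333, which is the smallest p that 2 samples against 2 allow. The intervals cover counting error only.

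The share depended on the denominator, and the genes of the rule themselves differed with injury. Members made up 5.10%, 10.8%, 7.06% and 14.1% of all kept cells, where the injured and normal samples overlapped (difference of -2.64 percentage points, exact permutation p = 0.667). SFRP2 fibroblasts made up 61.4% and 54.9% of the gated fibroblasts in the injured samples and 31.3% and 33.6% in the normal samples. Over all gated fibroblasts, SFRP2, a gene of the competing group, had 3347, 2141, 756 and 810.2 CPM, and FAM162B, a gene of the members' own group, had 80.3, 201, 393 and 502 CPM. A cell can thus leave or enter the members through a change in these genes, and a change in cell number cannot be told apart from it. With every cell thinned to 3000 UMIs before the rule, so that depth was equal, the shares were 13.7%, 22.6%, 27.5% and 38.6%, with 793, 537, 638 and 426 kept cells left out as too shallow.

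**Figure D2:**
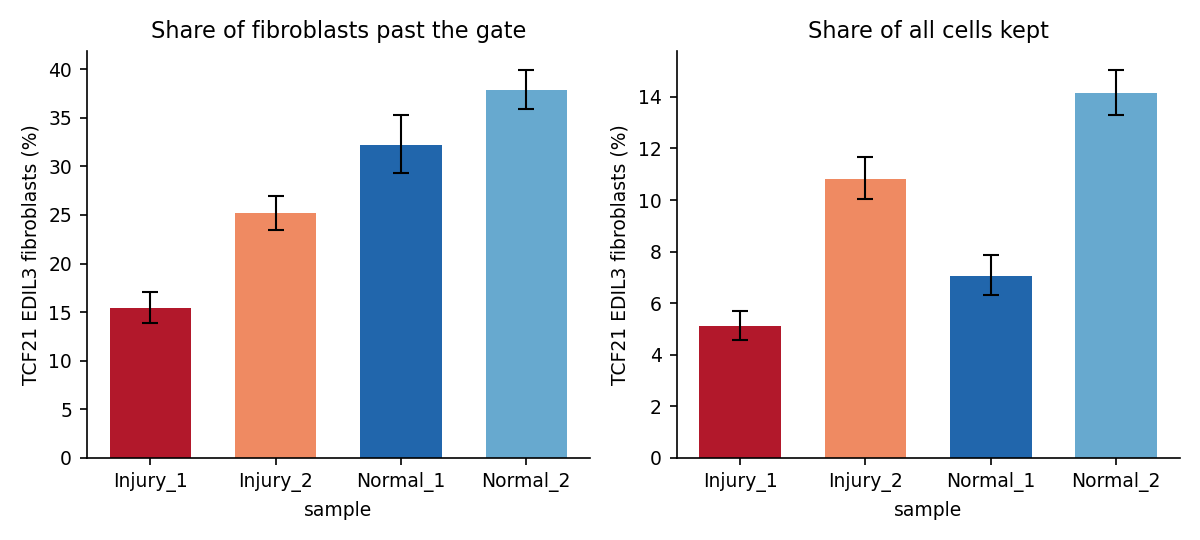
Members as a percentage of gated fibroblasts (left) and of all kept cells (right) in each sample, with 95% Wilson intervals as error bars and bars from 0. The left panel separates injured from normal samples (15.4 and 25.2% against 32.2 and 37.9%), and the right panel does not (5.10 and 10.8% against 7.06 and 14.1%).

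The members were shallower than SFRP2 and deeper than APOD fibroblasts. Their median UMI count was 7426, 8006, 4911.5 and 6732.5, below that of SFRP2 fibroblasts in each of the 4 samples (8229, 9040, 5414 and 7714), with a mean difference of -830.3 ± 240 UMIs (SD, n = 4). Against APOD fibroblasts it was higher in 3 of 3 samples, by 802 ± 628 UMIs (SD, n = 3), and against WIF1 fibroblasts lower in 3 of 3, with a mean difference of -477 ± 339 UMIs (SD, n = 3). The median share of mitochondrial UMIs was 7.96 to 8.85% in the members and 6.68 to 6.97% in SFRP2 fibroblasts, higher in the members in 4 of 4 samples by 1.60 ± 0.31 percentage points (SD, n = 4). Each of these differences gave a Benjamini-Hochberg adjusted p of 0.281 over 9 two-sided exact sign-flip permutation tests, and neither 3 nor 4 pairs of samples can reach an unadjusted p under 0.05. The mitochondrial share is read as a measure of RNA quality, and its part in the differences between these kinds was not tested beyond a stricter limit of 10%.

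Few genes passed the test between injured and normal members. Of 6783 genes tested, 27 passed a Benjamini-Hochberg adjusted p of 0.05 in the quasi-likelihood test of edgeR on the summed counts. These were 22 genes that were higher, or 0.324% of the genes tested, and 5 that were lower, or 0.0737%, and 20 of the 27 carried a symbol. The growth factors EREG and NRG1, the chemokine CXCL8 and the matrix gene COCH were among the genes that rose, and KAZALD1, VIT, LPL and MGP were the named genes that fell. The median log2 fold change of all genes tested was -0.01. Across all genes, both injured samples lay above both normal samples in 19.3% and below them in 25.3%, so that separation of the 2 groups by itself is common. Genes of the sorting rule also differed between the groups, with FAM162B in 69.0% and 70.7% of the injured and 96.7% and 96.0% of the normal members. A change within the same cells and a change in which cells met the rule cannot be told apart in this comparison.

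The 19 genes described next are the up to 15 in each direction that had a symbol, passed the test, reached 20 CPM on average on the higher side and showed no overlap between the groups, and fold changes are log2, injured over normal, with the SE of the fit. MOXD1, which encodes a monooxygenase-like protein, also rose (2.25 ± 0.31) but ranked below the first 15. The p-values measure the spread between these samples, which are 1 library from each of 2 rabbits a group.

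**Figure D3:**
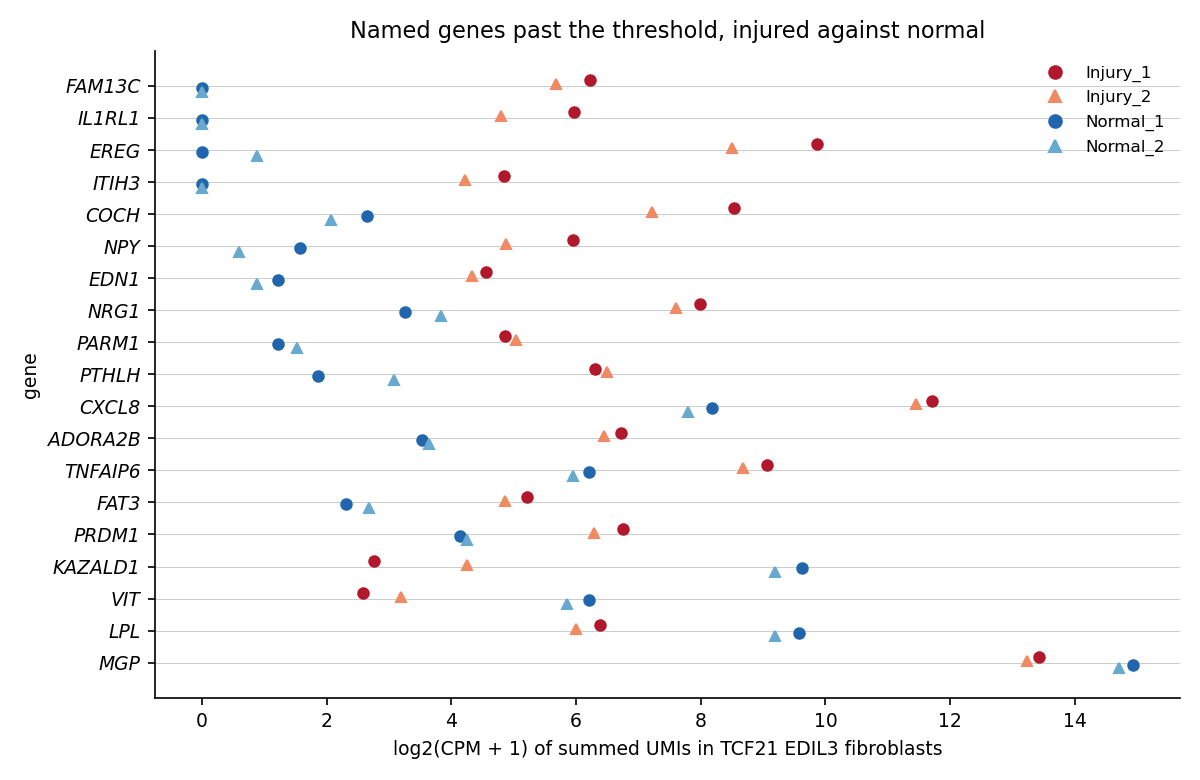
Level of the 19 named genes in the members, as log2(CPM + 1) of the summed UMIs, with 1 point per sample and genes ordered by fold change. The naming rule asked for no overlap between the groups, and the genes run from FAM13C, at 0 in the normal samples, to MGP, which fell.

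EREG and NRG1 rose. EREG, which encodes epiregulin, a ligand of the epidermal growth factor receptor, had 932 and 360.2 CPM in the injured samples and 0 and 0.847 CPM in the normal samples. The normal samples were at or near 0, with 5 UMIs in all against 4055 in the injured samples (adjusted p = 0.016 by edgeR). NRG1, which encodes neuregulin, a ligand of ERBB3 and ERBB4, had 252 and 194 CPM in the injured samples and 8.61 and 13.2 CPM in the normal samples, a change of 4.35 ± 0.37 (adjusted p = 0.016 by edgeR). Other ERBB ligands did not pass the test, with AREG at 3.62 ± 0.65 (adjusted p = 0.099 by edgeR) and BTC at 5.30 ± 0.81 (adjusted p = 0.059).

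EREG and NRG1 were also found in other kinds. WIF1 fibroblasts held NRG1 at 914 and 643 CPM in the injured samples, more than the members, and EREG at 446 and 277 CPM. SFRP2 fibroblasts held 1.999 and 3.62 CPM of NRG1 and 41.5 and 20.01 CPM of EREG in the injured samples. With cells thinned to 2000 UMIs, an NRG1 UMI was found in 22.9%, 22.5%, 1.52% and 2.59% of the members (38.7%, 43.98%, 2.96% and 7.39% without thinning), and in 0.206%, 0.102%, 0.0239% and 0.0905% of endothelial-like cells, which serve here as the background of free RNA. An EREG UMI was found in 37.6%, 23.9%, 0% and 0.153% of the thinned members (49.4%, 37.3%, 0% and 0.235% without thinning), against at most 0.181% of thinned endothelial-like cells. The 0 among the 304 members of Normal_1 allows a share of up to 0.987% with an EREG UMI. The median depth was 4911.5 to 8006 UMIs in the members and 4947 to 6787 UMIs in the endothelial-like cells, and thinning left out 6, 8, 3 and 6 members.

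The peptide genes PTHLH, EDN1 and NPY rose. PTHLH, which encodes parathyroid hormone-related protein, a relaxant of smooth muscle, had 78.4 and 89.3 CPM in the injured samples and 2.65 and 7.46 CPM in the normal samples (3.91 ± 0.44, adjusted p = 0.022 by edgeR). EDN1, which encodes the vasoconstrictor endothelin, had 22.4 and 19.1 CPM in the injured samples and 1.32 and 0.847 CPM in the normal samples (4.42 ± 0.47), and endothelial-like cells held 159, 169, 197 and 67.9 CPM. NPY, which encodes neuropeptide Y, had 61.00 and 28.5 CPM in the injured samples and 1.99 and 0.508 CPM in the normal samples (5.66 ± 0.71). EDN1 and NPY rested on 7 and 6 UMIs in the normal samples. A PTHLH UMI was found in 10.2%, 12.6%, 0.440% and 1.25% of the members thinned to 2000 UMIs (23.2%, 30.6%, 1.32% and 3.17% without thinning) and in 17.4%, 18.5%, 11.5% and 7.76% of thinned endothelial-like cells, which held more in every sample, and the part of free RNA was not tested. Thinned WIF1 fibroblasts were also above the members, with 30.0%, 45.5% and 6.93% in Injury_1, Injury_2 and Normal_2. Thinned SFRP2 fibroblasts had 2.7%, 1.89%, 0.490% and 0.578%.

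NPY came from few cells. A UMI of NPY was found in 1.42%, 2.25%, 0.291% and 0.111% of the members thinned to 2000 UMIs and in 2.90%, 4.35%, 0.329% and 0.352% of them without thinning, so that most members of the injured samples held none at this depth.

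CXCL8, which encodes a chemokine that attracts neutrophils, had 3350.2 and 2797 CPM in the injured samples and 288 and 222 CPM in the normal samples in the members, a change of 3.65 ± 0.28 (adjusted p = 0.016 by edgeR). Immune-like cells held 34853, 29579, 11396 and 25868 CPM, and there were 690 and 557 of them in the injured samples against 106 and 95 in the normal samples. A CXCL8 UMI was found in 48.4%, 49.1%, 8.997% and 7.51% of the members thinned to 2000 UMIs (61.6%, 60.9%, 12.5% and 15.1% without thinning), in 52.5%, 36.1%, 20.2% and 39.95% of endothelial-like and in 30.4%, 18.1%, 8.82% and 23.5% of urothelial-like cells. The share in the members was thus above that of both classes in Injury_2 alone, and below that of endothelial-like cells in the other 3 samples. How much of the CXCL8 of the members was free RNA from other cells was not tested.

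In the whole list of growth factors, 31 of 43 genes were tested, 2 were higher (EREG and NRG1) and none was lower. The median change of the list was 0.98, against -0.01 over all genes, and both injured samples lay above both normal samples in 19 of the 31 and below them in 3, against 19.3% and 25.3% of all genes. The next in size did not pass the test. PTN, which encodes the heparin-binding factor pleiotrophin, had 112 and 279 CPM in the injured samples and 20.5 and 40.8 CPM in the normal samples (2.70 ± 0.54, adjusted p = 0.13), and CCN2, a matrix-associated growth factor, had 211 and 378 CPM in the injured samples and 27.8 and 87.6 CPM in the normal samples (2.38 ± 0.57, adjusted p = 0.2 by edgeR). FGF7, which encodes keratinocyte growth factor, had 191 and 190.3 CPM in the injured samples and 74.1 and 40.7 CPM in the normal samples (1.81 ± 0.36), and IGF1, which encodes insulin-like growth factor, had 165 and 144 CPM in the injured samples and 58.3 and 21.5 CPM in the normal samples (2.06 ± 0.48). At the other end, the axon guidance gene SEMA3D had 6.22 and 10.4 CPM in the injured samples and 12.6 and 22.7 CPM in the normal samples (-1.04 ± 0.44, not past the threshold).

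**Figure D4:**
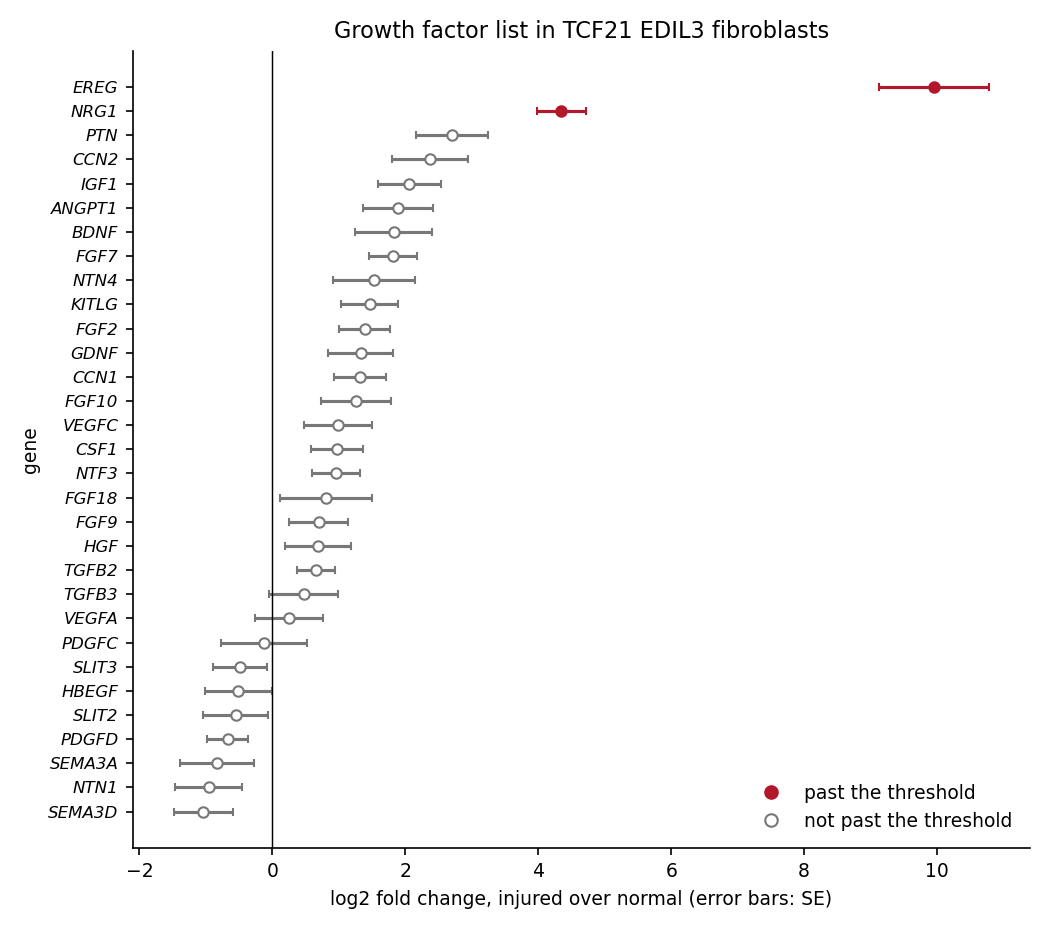
Log2 fold change of each tested gene of the growth factor list in the members, injured over normal, with SE as error bars, ordered by size, and filled points for the genes past an adjusted p of 0.05. EREG and NRG1 are the 2 filled points, and the median of the 31 genes is 0.98.

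Of the 33 chemokines and cytokines, 11 were tested, CXCL8 was higher and none was lower, with both injured samples above both normal samples in 7 and below them in none, against 19.3% and 25.3% of all genes. The median change of this list was 1.09. CCL2, which encodes a monocyte chemoattractant, had 207 and 203 CPM in the injured samples and 78.8 and 27.8 CPM in the normal samples (2.04 ± 0.49, adjusted p = 0.2 by edgeR), and CCL11, which encodes eotaxin, had 7.47 and 25.1 CPM in the injured samples and 0.662 and 0.169 CPM in the normal samples (5.81 ± 0.97, adjusted p = 0.081). Neither passed the threshold, although the groups did not overlap.

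IL1RL1, ADORA2B, FAT3 and PARM1 encode membrane proteins. IL1RL1, the receptor of interleukin 33, had 61.4 and 26.7 CPM in the injured samples and 0 and 0 CPM in the normal samples, with 282 UMIs against 0, which is at least 93.8-fold higher if the normal samples together are given the limit of 3 UMIs that a count of 0 allows. ADORA2B, the adenosine receptor of low affinity, had 105 and 86.1 CPM in the injured samples and 10.6 and 11.5 CPM in the normal samples (3.14 ± 0.30, adjusted p = 0.019 by edgeR).

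IL1RL1 was found in few cells, with a UMI in 2.81%, 2.02%, 0% and 0% of the thinned members (5.81%, 4.35%, 0% and 0% without thinning), and in 0.484%, 0.310%, 0.142% and 0.0275% of the thinned endothelial-like cells. The counts of 0 in the normal samples allow shares of up to 0.987% of 304 and 0.352% of 852 members with an IL1RL1 UMI. FAT3, which encodes an atypical cadherin, had 36.1 and 28.1 CPM in the injured samples and 3.97 and 5.42 CPM in the normal samples (2.75 ± 0.37). PARM1, which encodes a mucin-like membrane protein, had 28.2 and 31.7 CPM in the injured samples and 1.32 and 1.86 CPM in the normal samples (4.16 ± 0.41). Smooth muscle-like cells held PARM1 at 239, 243, 102 and 44.5 CPM, and in members with at least 2% of UMIs in DCN and LUM the change was 4.45 ± 0.64 with an adjusted p of 0.0567 by edgeR, past the threshold no longer.

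In the list of cholinergic, purinergic, prostanoid and peptide receptors, 16 of 44 genes were tested, ADORA2B was higher and none was lower, and the median change was 0.40. EDNRB, the endothelin receptor of type B, had 177 and 148 CPM in the injured samples and 51.6 and 10.0 CPM in the normal samples (2.55 ± 0.69, adjusted p = 0.24 by edgeR). ENTPD1 and NT5E encode the surface enzymes that turn ATP into adenosine. ENTPD1 had 14.9 and 17.9 CPM in the injured samples and 60.2 and 68.8 CPM in the normal samples (-1.91 ± 0.30, adjusted p = 0.066) and NT5E had 47.7 and 27.1 CPM in the injured samples and 264 and 147 CPM in the normal samples (-2.41 ± 0.43, adjusted p = 0.096). Neither enzyme passed the threshold.

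PRDM1, which encodes a transcriptional repressor, was the named regulator that rose. It had 107 and 77.1 CPM in the injured samples and 16.6 and 17.96 CPM in the normal samples (2.45 ± 0.31, adjusted p = 0.028 by edgeR). A PRDM1 UMI was found in 15.8%, 12.2%, 2.81% and 3.34% of the thinned members (39.03%, 33.8%, 6.58% and 10.4% without thinning) and in 25.3%, 22.2%, 15.4% and 11.7% of thinned endothelial-like cells, more than in the members in every sample, and the part of free RNA was not tested. Thinned WIF1 fibroblasts were also above the members, with 26.95%, 34.05% and 6.85% in Injury_1, Injury_2 and Normal_2. Thinned SFRP2 fibroblasts had 0.929%, 0.645%, 0.694% and 0.422%. FAM13C, for which no role is stated here, had 73.9 and 50.01 CPM in the injured samples and 0 and 0 CPM in the normal samples, or 429 UMIs against 0, which is at least 143-fold higher with the same limit of 3 UMIs. Endothelial-like cells held FAM13C at 17.7, 24.1, 16.5 and 3.88 CPM, so the gene was not at 0 in the normal samples there. In the list of 46 fibroblast transcription factors, 13 were tested and none passed, with a median of -0.17.

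The genes of the extracellular matrix moved in both directions. COCH, which encodes the matrix protein cochlin, had 371 and 147 CPM in the injured samples and 5.30 and 3.22 CPM in the normal samples (6.09 ± 0.61, adjusted p = 0.019 by edgeR). TNFAIP6, which encodes a secreted hyaluronan-binding protein, had 532 and 407 CPM in the injured samples and 72.8 and 61.02 CPM in the normal samples (2.87 ± 0.31). ITIH3, which encodes a heavy chain that is carried by hyaluronan, had 27.8 and 17.7 CPM in the injured samples and 0 and 0 CPM in the normal samples, or 156 UMIs against 0, which is at least 51.9-fold higher with the limit of 3 UMIs. Smooth muscle-like cells also held ITIH3, at 41.1, 46.1, 22.4 and 3.77 CPM.

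KAZALD1, a secreted protein with an insulin-like growth factor binding domain, had the largest fall of the named genes. Its level was 5.81 and 18.1 CPM in the injured samples and 791 and 581 CPM in the normal samples (-5.72 ± 0.59, adjusted p = 0.019 by edgeR), and a UMI was found in 1.47%, 3.83%, 73.5% and 57.8% of the thinned members (3.87%, 11.5%, 92.1% and 83.9% without thinning), against at most 1.61% of thinned endothelial-like cells. Most normal members and few injured ones thus held the gene. VIT, which encodes the matrix protein vitrin, had 4.98 and 8.17 CPM in the injured samples and 72.8 and 56.8 CPM in the normal samples (-3.18 ± 0.38). MGP, which encodes matrix Gla protein, an inhibitor of calcification, had 11031 and 9605 CPM in the injured samples and 31352 and 26692 CPM in the normal samples (-1.44 ± 0.17, adjusted p = 0.026).

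LPL, which encodes lipoprotein lipase, had 82.6 and 62.96 CPM in the injured samples and 764 and 585 CPM in the normal samples (-3.16 ± 0.32, adjusted p = 0.019 by edgeR). It was the 1 gene of 6 tested in the list of lipid handling and adipocyte regulators that passed, and the list's median was 0.01. In the same list FABP5, a fatty acid binding protein, had 87.6 and 49.6 CPM in the injured samples and 18.5 and 16.8 CPM in the normal samples (2.01 ± 0.37, adjusted p = 0.1).

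Of the wound matrix and myofibroblast list, 13 of 27 genes were tested, COCH was higher and KAZALD1 was lower, with a median of 0.60. Collagens and other structural genes did not pass. No gene of 11 tested fibrillar and associated collagens, 15 basement membrane genes, 15 elastic fibre and proteoglycan genes or 11 metalloproteases and their inhibitors was called, with medians of 0.30, 0.06, 0.01 and 0.65. FBN2, which encodes a fibrillin, had 20.8 and 58.4 CPM in the injured samples and 1.32 and 6.95 CPM in the normal samples (3.06 ± 0.71), and COL1A1, the main collagen of connective tissue, had 7752 and 8914 CPM in the injured samples and 2104 and 9809.8 CPM in the normal samples (0.54 ± 0.60), with Normal_1 low and Normal_2 above both injured samples.

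Signalling pathways gave no call in the members with injury. None of 20 tested genes of the WNT pathway passed (median 0.38), nor did any of 21 of the BMP and TGF-beta pathway (median 0.09), 5 of the hedgehog pathway (median 0.25), 3 insulin-like growth factor binding genes (median -0.81) and 7 retinoid and aldehyde enzymes (median -0.38). FST, which encodes follistatin, a binder of activin, had 470.2 and 233 CPM in the injured samples and 52.96 and 27.96 CPM in the normal samples (3.20 ± 0.48, adjusted p = 0.059 by edgeR), and IGFBP4 had 249 and 184 CPM in the injured samples and 68.2 and 49.7 CPM in the normal samples (1.94 ± 0.32, adjusted p = 0.078). Both lay near the threshold with no overlap between the groups.

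The remaining lists also held no called gene in the comparison of injured with normal members. The numbers tested and the medians were 5 and 0.38 for fibroblast identity genes, 4 and -0.73 for genes of adventitial progenitor fibroblasts, 5 and 0.60 for complement, 14 and 0.12 for interstitial cell and ion channel genes, and 9 and 0.00 for integrins. For immediate early genes that respond to tissue dissociation they were 12 and 0.08, for the interferon response 8 and 0.21, for the cell cycle 5 and -0.48, for glycolysis and hypoxia 9 and 0.13, and for protein folding 8 and 0.46. Most of these medians lay within 0.5 of that of all genes. The 5 smooth muscle markers had a median of 0.85 with none called, and of the other lists of markers reported here none held a called gene.

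The members were next set beside the other kinds of fibroblast of the same rabbits. The kinds were defined by genes of the same libraries, so these differences describe how the kinds were drawn and are not a test, and nothing is read from their number. Against SFRP2 fibroblasts, 593 genes outside the rule were higher in the members (9.13% of 6493) and 550 were lower (8.47%) at an adjusted p of 0.05 in edgeR with the rabbit as a block. Against WIF1 fibroblasts 160 were higher (2.46%) and 73 lower (1.12%), and against APOD fibroblasts 31 were higher (0.477%) and 27 lower (0.416%). The WIF1 and APOD comparisons rest on 3 rabbits each and on 40 to 65 cells a sample, and the 3 pairs of counts are not compared with each other.

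IGFBP5, which encodes a binder of insulin-like growth factor, was the 1 gene higher in the members than in all 3 other kinds. It had 1892, 1970.4, 3330 and 4629 CPM in the members, 913, 1143, 2508 and 1799.6 CPM in SFRP2 fibroblasts, 1125 to 2043 CPM in WIF1 and 723 to 1347 CPM in APOD fibroblasts. The log2 differences were 0.79 ± 0.14, 1.01 ± 0.16 and 1.65 ± 0.17, higher in 4 of 4, 3 of 3 and 3 of 3 rabbits. Within each rabbit the members were highest, but their injured samples overlapped with the normal samples of the other kinds. No gene was lower than in all 3. Without the rabbit as a block IGFBP5 was past the threshold in none of the 3 comparisons.

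The genes named between kinds below were chosen after their values had been seen, as those with the largest differences. Against SFRP2 fibroblasts the members held more NRG1 (252, 194, 8.61 and 13.2 CPM against 1.999, 3.62, 0.604 and 0.339 CPM, a log2 difference of 6.10 ± 0.28). MMP3, which encodes the matrix protease stromelysin, had 314, 95.8, 67.5 and 27.96 CPM against 1.62, 1.89, 3.63 and 2.37 CPM (5.83 ± 0.50). GPM6A, a membrane glycoprotein of neurons, had 25.7, 30.3, 60.2 and 69.5 CPM against 0.762, 0.906, 1.81 and 2.20 CPM (4.86 ± 0.22). In each gene the members were higher in 4 of 4 rabbits and the lowest member value exceeded the highest SFRP2 value. GPM6A was found in a larger share of thinned WIF1 fibroblasts than of thinned members in Injury_1, Injury_2 and Normal_2. These shares were 8.59%, 7.46% and 23.0% against 5.21%, 6.55% and 12.1%. For MMP3 they were 12.5%, 9.83% and 0% against 9.31%, 4.99% and 0.946%.

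CALY, a regulator of vesicle traffic, SEMA4D, a semaphorin, FGFR4, a fibroblast growth factor receptor, and the protease ADAMDEC1 were also higher in the members than in SFRP2 fibroblasts. ADAMDEC1 had 459, 587, 344 and 352 CPM against 24.6, 33.9, 25.4 and 12.2 CPM (4.08 ± 0.63), and FGFR4 had 75.1, 84.3, 20.5 and 48.1 CPM against 6.28, 2.64, 4.23 and 1.86 CPM (3.99 ± 0.26). The ranges of the 2 kinds did not overlap in either gene. LEF1, a transcription factor of the WNT pathway, was higher by 3.75 ± 0.29, and NTF3, which encodes the nerve growth factor neurotrophin, by 4.29 ± 0.38.

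In the other direction, ITGBL1, an integrin-like secreted protein, had 4.98, 7.97, 3.97 and 8.81 CPM in the members against 268, 288, 127 and 137 CPM in SFRP2 fibroblasts (-4.97 ± 0.22). LVRN, an aminopeptidase, had 28.2, 9.76, 43.7 and 68.1 CPM against 293, 407, 225 and 404 CPM (-3.45 ± 0.33), and S100A4, a calcium-binding protein, had 1016, 1149.6, 882 and 1065 CPM against 4050.5, 5018, 5246 and 6835 CPM (-2.46 ± 0.18). All 4 rabbits had less in the members. MYOC, EPYC and CILP, which encode matrix-associated proteins, differed by -4.89 ± 0.54, -4.28 ± 0.36 and -3.10 ± 0.30.

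Among the lists, interstitial cell and ion channel genes were higher in the members than in SFRP2 fibroblasts in 8 of 13 tested and lower in none (9.13% and 8.47% over all genes), with a median difference of 0.89 against -0.01 over all genes. TRPA1, a cation channel, had 85.9, 56.8, 63.6 and 17.3 CPM against 3.62, 2.96, 35.6 and 6.27 CPM (2.77 ± 0.44), and PDE5A, which breaks down cyclic GMP, had 82.6, 128, 187 and 270.3 CPM against 40.6, 52.9, 135 and 121 CPM (0.89 ± 0.13). Of 5 fibroblast identity genes 4 were lower (FBN1, COL1A2, COL1A1 and COL3A1) and none was higher, with a median of -1.08. COL1A1 had 7752, 8914, 2104 and 9809.8 CPM against 14395, 18047, 5053 and 16063 CPM, less in the members of every rabbit. Against WIF1 and APOD fibroblasts none of the 13 interstitial cell and ion channel genes passed in either direction, with medians of -0.09 and 0.62. Over all genes 2.46% were higher and 1.12% lower than in WIF1 fibroblasts, and 0.477% and 0.416% than in APOD fibroblasts. This trait was thus shown against SFRP2 fibroblasts only.

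Over all genes 9.13% were higher in the members than in SFRP2 fibroblasts and 8.47% lower. Growth factors split, with 11 of 30 tested higher in the members than in SFRP2 fibroblasts and 7 lower, as did genes of the WNT pathway, with 6 of 22 in each direction, and of the BMP and TGF-beta pathway, with 5 of 19 higher and 6 lower. BMP5 and BMP2, which encode bone morphogenetic proteins, were higher by 2.22 ± 0.34 and 1.82 ± 0.25. Of 4 tested genes of adventitial progenitor fibroblasts 3 were lower (CD34, SEMA3C and IGFBP6), and of 5 complement genes 3 were lower.

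Of the 5 smooth muscle markers 4 were higher in the members than in SFRP2 fibroblasts, against 9.13% over all genes. The log2 differences were 2.10 ± 0.28 for ACTA2, 2.18 ± 0.28 for ACTG2, 2.91 ± 0.40 for MYH11 and 1.84 ± 0.18 for Tpm2, and they were 1.48 ± 0.29, 1.83 ± 0.33, 1.94 ± 0.32 and 1.54 ± 0.15 in cells with at least 2% of UMIs in DCN and LUM. The markers thus stayed higher without the members that held the least DCN and LUM. Against WIF1 fibroblasts none of the 5 passed in either direction, with a median of -0.35, where 2.46% of all genes were higher and 1.12% lower. Against APOD fibroblasts 3 were higher (Tpm2, ACTG2 and ACTA2) and none was lower, with a median of 1.9. Over all genes 0.477% were higher and 0.416% lower there. The part of these markers in the other differences between the kinds was not tested.

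Against WIF1 fibroblasts the members held more ABCA6, a lipid transporter, at 90.5, 53.2, 231 and 34.1 CPM against 0 to 5.96 CPM, more ADH6, an alcohol dehydrogenase, at 177, 281, 779.9 and 328 CPM against 0 to 44.7 CPM, and more CD34, a surface sialomucin, at 40.3, 76.7, 105 and 122 CPM against 3.21 to 23.9 CPM. They held less of the mitotic genes CCNB2 (-4.22 ± 0.50) and NDC80 (-3.38 ± 0.46) and of WNT5A, a secreted WNT ligand (-2.20 ± 0.29). Of 7 tested cell cycle genes 2 were lower, and of 15 elastic fibre and proteoglycan genes 6 were higher, against 1.12% lower and 2.46% higher over all genes. CCNB2 and NDC80 did not pass with the rule on thinned cells, nor at 2% of UMIs in DCN and LUM, where WIF1 fibroblasts are 1 sum of 20 cells. CCNB2 was low in both kinds, at 0.662 to 2.39 CPM in the members and 12.8 to 49.3 CPM in WIF1 fibroblasts. Few WIF1 fibroblasts held these genes. In Injury_1, Injury_2 and Normal_2 a CCNB2 UMI was found in 1, 3 and 2 of 40, 55 and 44 cells. An NDC80 UMI was found in 2, 5 and 1.

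Against APOD fibroblasts the members held more ACTA2 (2.84 ± 0.42), CALY (3.88 ± 0.66) and COL12A1, which encodes a fibril-associated collagen (364, 401, 352 and 905 CPM against 49.6 to 166 CPM). CCL2 was lower, at 207, 203, 78.8 and 27.8 CPM against 415 to 1656 CPM (-3.23 ± 0.40), as was ABCA8, a lipid transporter (-3.16 ± 0.46). The comparisons with SFRP2, WIF1 and APOD fibroblasts share the sums of the members and are not independent of each other.

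Whether the members responded to injury differently from the other kinds was tested as a difference of the 2 injury effects. Against the mean of the other 3 kinds no gene of 7197 passed in edgeR, with 334 genes at an unadjusted p under 0.05 and none past the threshold in DESeq2. In that mean the injured side of the APOD kind was Injury_1 alone (48 cells), since Injury_2 (19 cells) was left out. The normal side of the WIF1 kind was Normal_2 alone (44 cells), since Normal_1 (1 cell) was left out. The spread between rabbits on those sides was thus not measured, and an equal response of the kinds cannot be read from the lack of calls. Against SFRP2 fibroblasts alone, a comparison that was added after the data had been seen since the other kinds rest on few cells, 62 genes passed, with a larger injury effect in the members in 37 (0.514%) and a smaller one in 25 (0.347%). Genes of the rule are left out of these counts. SFRP2 and FAM162B, genes of the rule, differed with injury over all gated fibroblasts, so cells can move between the 2 kinds compared. A different response of the same cells and such a move cannot be told apart in this test. Differences below are log2, the injury effect of the members minus that of SFRP2 fibroblasts.

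The injury effect on amphiregulin was larger in the members than in SFRP2 fibroblasts. AREG, which encodes amphiregulin, a further ligand of the epidermal growth factor receptor, had 1536 and 973 CPM in the injured samples and 170.1 and 44.1 CPM in the normal samples in the members and 174, 67.1, 123 and 52.2 CPM in SFRP2 fibroblasts, a difference of 3.40 ± 0.30 (adjusted p = 2.0e-06 by edgeR). In the members alone the injury effect on AREG did not pass (3.62 ± 0.65, adjusted p = 0.099). WIF1 fibroblasts held 3259.7 and 2074 CPM in the injured samples and 17.9 CPM in Normal_2, with a UMI in 53.04%, 62.1% and 3.69% of their thinned cells (67.5%, 81.8% and 11.4% without thinning), above the members in the injured samples in both measures. Urothelial-like cells held AREG at 5828, 3429, 6057 and 5608 CPM. With cells thinned to 2000 UMIs, an AREG UMI was found in 38.6%, 30.9%, 25.6% and 3.21% of the members (55.5%, 43.3%, 48.7% and 8.10% without thinning), 8.08%, 3.73%, 22.6% and 2.50% of SFRP2 fibroblasts and 7.63%, 2.16%, 23.8% and 2.33% of endothelial-like cells. In the normal samples the members' share was close to that of endothelial-like cells, and in the injured samples it was well above it. The part of free RNA in the AREG of the members was not tested.

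EDNRB had 177 and 148 CPM in the injured samples and 51.6 and 10.0 CPM in the normal samples in the members and 6.95, 2.88, 34.4 and 4.07 CPM in SFRP2 fibroblasts (4.29 ± 0.50, adjusted p = 4.4e-05 by edgeR). PARM1 had 3.05, 1.81, 2.42 and 3.39 CPM in SFRP2 fibroblasts (4.59 ± 0.58), and FAM13C had 19.7, 12.4, 2.42 and 1.19 CPM there (7.21 ± 1.25), lower than in the injured members but also higher in injured than in normal samples. In WIF1 fibroblasts EDNRB had 526 and 236 CPM in the injured samples and 14.9 CPM in Normal_2. PARM1 had 144 and 105 CPM in the injured samples and 5.96 CPM in Normal_2 in the same kind, and both genes were above the members there in the injured samples. Endothelial-like cells held EDNRB at 106, 151, 224 and 176 CPM. TRPA1 differed by 3.28 ± 0.30, LNP1 by 4.24 ± 0.68, the integrin gene ITGA2 by 3.23 ± 0.71, CCL11 by 5.73 ± 0.86, MMP3 by 2.90 ± 0.67 and IBSP, which encodes a bone sialoprotein, by 2.99 ± 0.50. IBSP was higher in normal than in injured SFRP2 fibroblasts (1.43, 1.40, 8.46 and 21.2 CPM) and had 7.88, 13.1, 13.2 and 17.8 CPM in the members.

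Normal_1 weighs on several of these. TRPA1 had 3.62, 2.96, 35.6 and 6.27 CPM in SFRP2 fibroblasts, and EDNRB, LNP1 and MCTP1 were likewise highest there in Normal_1, the shallowest sample, at 34.4, 4.23 and 30.2 CPM against at most 6.95, 1.19 and 6.47 CPM in the other samples. In these 4 genes the members and SFRP2 fibroblasts were closest in that sample. Without Normal_1 the count was 72 genes, and 11 of the 12 genes with the largest differences passed, all but MMP3. Without Normal_2 the 4 kinds could not be fitted together, and the fit used the sums of the members and SFRP2 fibroblasts alone. FAM13C, CCL11, PARM1, ITGA2, IBSP, MMP3 and PRSS35 did not pass in it. With all samples, the fit on these 2 kinds alone gave 45 genes, and ITGA2 and MMP3 did not pass there either.

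In the opposite direction, PRSS35, a serine protease-like gene, had 26.6, 46.4, 18.5 and 42.5 CPM in the members and 25.3, 14.2, 1.21 and 1.86 CPM in SFRP2 fibroblasts (-3.37 ± 0.59, adjusted p = 0.0041 by edgeR). P4HA3, which encodes a subunit of collagen prolyl hydroxylase, had 4.56, 9.56, 17.2 and 15.8 CPM in the members and 19.7, 38.3, 9.67 and 8.14 CPM in SFRP2 fibroblasts (-2.89 ± 0.36). In both genes the injured samples lay above the normal ones in SFRP2 fibroblasts. In the members they overlapped for PRSS35 and lay below the normal ones for P4HA3.

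**Figure D5:**
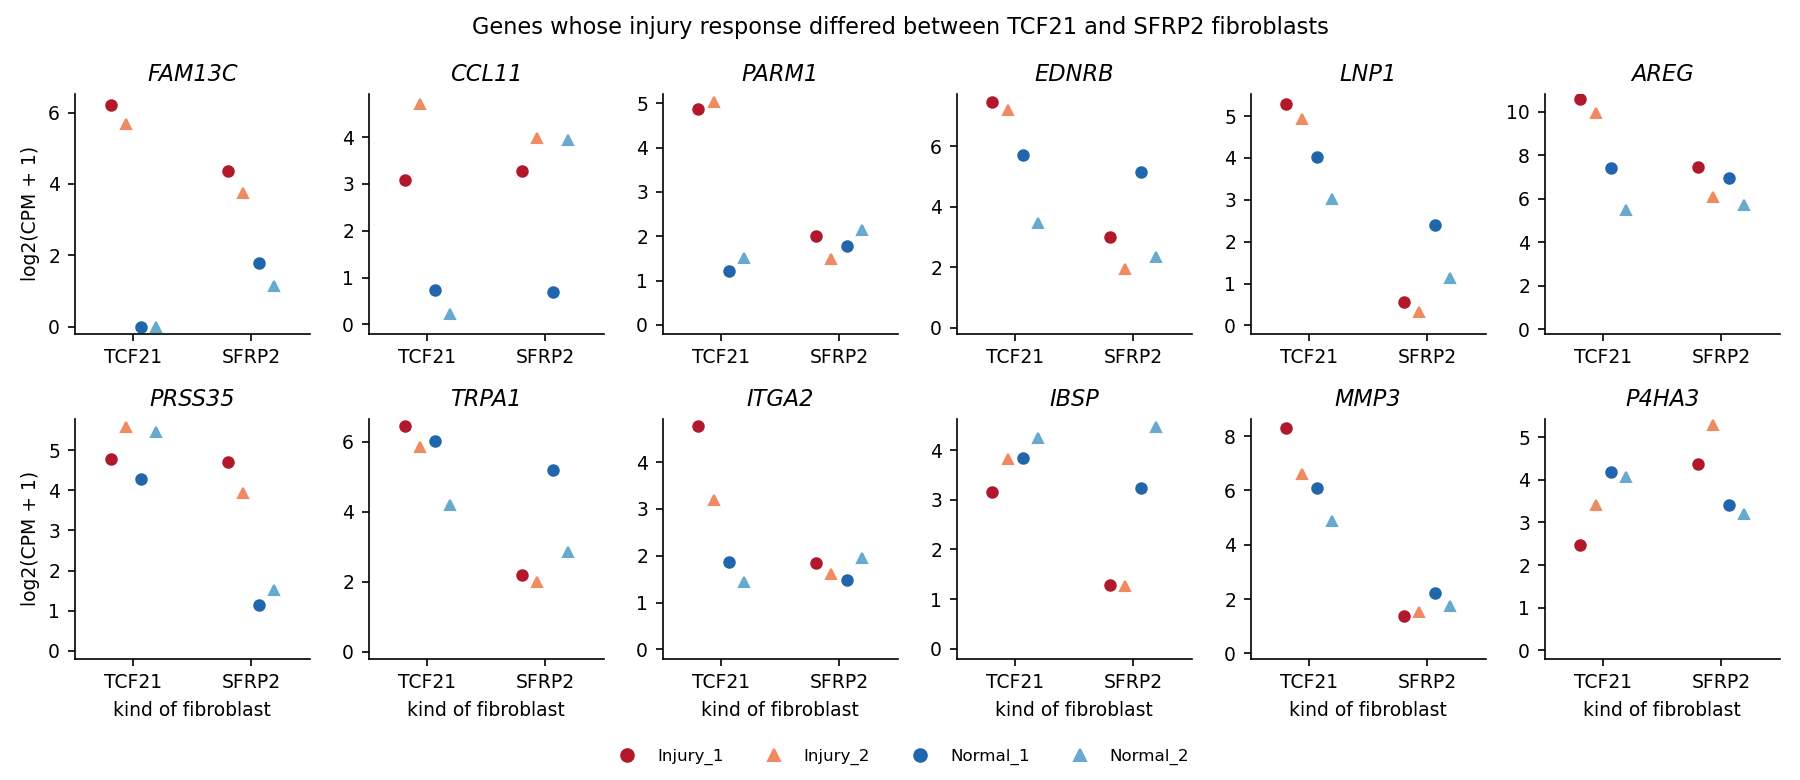
Level of the 12 genes with the largest difference in injury effect, as log2(CPM + 1), in TCF21 EDIL3 and in SFRP2 fibroblasts, with 1 point per sample. Of these 2 kinds, the injured samples lie above the normal ones in AREG, EDNRB and PARM1 in the members and not in SFRP2 fibroblasts, and in PRSS35 in SFRP2 fibroblasts and not in the members.

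Of the 19 genes named for the injury comparison, FAM13C, PARM1 and VIT passed this test of the difference. VIT, which fell in the members, had 14.1, 27.6, 70.7 and 50.7 CPM in SFRP2 fibroblasts, a difference of -1.75 ± 0.30 (adjusted p = 0.003 by edgeR). For NRG1 the difference was 1.51 ± 1.18 and for EREG 3.24 ± 1.48, and neither passed, so a response particular to the members was not shown for either ligand. CXCL8, at 1799.7, 1212, 77.3 and 187 CPM in SFRP2 fibroblasts, differed by 0.03 ± 0.44, and MGP, at 12007, 11353, 37072 and 36443 CPM, by 0.18 ± 0.16. KAZALD1 and LPL had 29.5, 57.3, 1118 and 1075 CPM and 329.7, 161, 1431 and 1000.2 CPM in SFRP2 fibroblasts, with differences of -1.18 ± 0.30 (adjusted p = 0.067) and -0.82 ± 0.25, neither past the threshold.

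Of the 25 gene lists, 10 held a gene past the threshold in this test of the difference. The lists differ in the number of genes tested, so nothing is read from this count. In the growth factor list PTN and ANGPT1 had a larger injury effect in the members and FGF9 and SLIT3 a smaller one, of 31 tested. Over all genes the effect was larger in 0.514% and smaller in 0.347%. The median difference of that list was 0.68, against -0.02 over all genes.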

How the data were processed

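Single-cell RNA sequencing (Chromium Single Cell 3' chemistry) had been carried out on bladder mucosa of 2 injured and 2 normal rabbits. The authors mapped the reads and made UMI counts per gene and barcode with Cell Ranger (6.0.1 in the file headers); the genome release is not given in the sources used here. The deposited UMI counts are raw whole numbers. Of 18475 genes 9771 carry a symbol.

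Cells were sorted by the rule given above, which uses measured values, and the members and gene lists were chosen with earlier results of these data known. UMI counts were summed per sample and kind (at least 20 cells) and tested with edgeR 4.0.16 (TMM, filterByExpr, quasi-likelihood test, Benjamini-Hochberg threshold 0.05), with the rabbit as a block between kinds, after tests on simulated data. The edgeR adjusted p-values refer to all genes tested. Single values were compared by two-sided exact permutation tests. Shares carry 95% Wilson intervals. Doublets were not removed; leaving out the 5% of cells with the highest Scrublet scores (scanpy 1.11.5) was an alternative, as were DESeq2 1.42.0, other scaling, no filter, other limits and leaving out samples. Classes such as endothelial-like cells needed at least 3 detected markers. The result of 1 marker list is not reported here.

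Genes were named by a rule: the genes of the sorting rule, up to 15 in each direction past the threshold with a symbol, 20 CPM and no overlap, IGFBP5 as the gene past it against all kinds, members of 25 gene lists and 14 marker lists, and the largest differences in injury effect, where 12 in place of 10 are given for the added comparison.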

Additional observations from a re-analysis of the deposited data

Results flagged for a closer look

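The test of the difference between 2 kinds marked 62 genes outside the sorting rule whose injury effect differed between TCF21 EDIL3 and SFRP2 fibroblasts at an adjusted p of 0.05 in edgeR. The 12 with the largest difference (log2, members minus SFRP2 fibroblasts) were FAM13C (7.21), CCL11 (5.73), PARM1 (4.59), EDNRB (4.29), LNP1 (4.24), AREG (3.40), PRSS35 (-3.37), TRPA1 (3.28), ITGA2 (3.23), IBSP (2.99), MMP3 (2.90) and P4HA3 (-2.89). These values belong to a comparison that was added after the data had been seen. FAM13C had no UMI in the normal members, so the counts set no upper limit on its difference and its rank is not exact. AREG, EDNRB, LNP1, TRPA1 and P4HA3 passed the threshold in each fit that left out 1 sample, and also in DESeq2. CCL11, ITGA2, IBSP and MMP3 did not pass in DESeq2, and CCL11 rested on low counts, with a UMI in 0.933% and 1.37% of the thinned members of the injured samples. No sample was tested as standing apart, since each group holds 2 samples.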

How the results depend on the processing

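The count of 27 genes between injured and normal members became 343 without the filter on low counts, 133 in DESeq2, 41 with a mitochondrial limit of 10% and 96 to 650 when 1 sample was left out; it was 650 without Normal_2, 308 without Normal_1, 108 without Injury_2 and 96 without Injury_1. With the replicate number as a block it was 95. Samples share only a number, since the labels state no pairing and 2 pairs deviated together weakly (r = 0.112 across genes, which are not independent); all 19 named genes kept their call in this block. Of the 19, COCH, PARM1 and FAT3 were no longer past the threshold with the rule applied to cells thinned to 3000 UMIs (adjusted p of 0.0554, 0.0655 and 0.0819), and PARM1 at 2% of UMIs in DCN and LUM, and all others kept their call in all alternatives. The count against SFRP2 fibroblasts became 208 without the rabbit as a block (no replicate block) and 659 to 1069 when 1 sample was left out (697 without Injury_1, 659 without Injury_2). Against WIF1 fibroblasts it became 528 without the filter, 37 without the block, 72 to 279 when 1 sample was left out (86 without Injury_1, 72 without Injury_2) and 56 at 2% of UMIs in DCN and LUM, where 1 sum of 20 cells (Injury_2) stands for the WIF1 kind and is assumed to vary like the others; with the scaling of DESeq2 it was 114 higher and 86 lower. Against APOD fibroblasts it became 223 without the filter, 0 without the block in edgeR (389 genes at an unadjusted p under 0.05), 20 to 58 when 1 sample was left out (20 without Injury_1, 33 without Normal_1, 28 without Normal_2), 38 with a mitochondrial limit of 10% and 192 with the rule on thinned cells; with the scaling of DESeq2 it was 24 higher and 32 lower. The difference in injury effect against the other 3 kinds gave 20 genes without the filter, 1 to 5 when 1 sample was left out, 1 with at least 3 of the 4 genes and 3 with thinned cells; without Injury_1, without Normal_2 and at 2% of UMIs in DCN and LUM it could not be fitted. Against SFRP2 fibroblasts alone it gave 167 genes without the filter, 32 in DESeq2 and 41 to 124 when 1 sample was left out (124 without Injury_1, 41 without Injury_2, 111 without Normal_2). The cause of these changes was not tested. The share of members moved from -14.8 to -2.64 percentage points with all kept cells as the denominator. With 2 rabbits a group, Normal_1 at the lowest depth and the WIF1 and APOD kinds on few cells, small differences were not detectable, and a gene below the threshold may still differ.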
